A study of Mus musculus with 17 samples.

Results

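Wt1 and 5 further transcription factor genes of the podocyte lineage, Foxc1, Foxc2, Lmx1b, Tcf21 and Foxd1, were followed in E11 cells grown on silicone surfaces of different shape. The 6 genes are a set of podocyte factors taken by name, with earlier results of these data known, out of 56748 genes in the count table, and 5 of them were detected and were among the 15196 genes tested. RNA was sequenced from 17 libraries of E11, an established mouse podocyte line, and the series title names the maturation of podocytes on fractal topography as its subject. All groups carried the same cell line and grew on polydimethylsiloxane (PDMS), a silicone. In HF (n = 6) the surface bore a highly fractal relief derived from tracings of healthy glomeruli, in RT (n = 6) it bore a round relief that is not fractal, and in NT (n = 5) it was flat. The labels do not say whether replicates were separate cultures, passages or substrates. A p-value here sets a difference between groups only against the spread of libraries within a group, and that spread may be technical.

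Podocytes are the epithelial cells that cover the glomerular capillaries, and a small set of transcription factors sets up and keeps their identity. WT1, a zinc finger protein, binds enhancers and promoters of many podocyte genes, and its loss from the adult glomerulus leads to loss of foot processes. LMX1B (a LIM homeodomain protein), FOXC1 and FOXC2 (forkhead proteins), TCF21 (a basic helix-loop-helix protein) and WT1 act on overlapping sets of slit diaphragm and basement membrane genes, while FOXD1, another forkhead protein, is best known from the renal stroma and is also expressed in the podocyte lineage.

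Wt1 is made as several splice forms, and the best known difference between them is whether the linker between the last zinc fingers holds the residues lysine, threonine and serine (the +KTS and -KTS forms). The reference transcripts of this stretch of Wt1 on chromosome 2, from GENCODE M21, are shown because the counts below add both forms together. The capitals mark the 9 bases that 5 transcripts hold and 2 lack, placed as far 3′ as the match allows.
longer form of Wt1: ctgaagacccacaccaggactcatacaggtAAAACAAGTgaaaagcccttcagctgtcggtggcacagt
shorter form of Wt1: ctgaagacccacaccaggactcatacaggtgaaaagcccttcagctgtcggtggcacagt
The count table has 1 value per gene, so the proportion of these forms was not analysed here.

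Promoter windows from 250 bases before to 50 bases after the start were taken from RefSeq on GRCm38.p6 and matched 4 of the 6 genes (Lmx1b, Tcf21, Foxc1 and Foxd1). The pair shown belongs to the genes at the ends of the expression range, Foxc1 at chr13:31806396-31806695 on the plus strand and Tcf21 at chr10:22820094-22820393 on the minus strand. Capitals mark each CG dinucleotide.
Foxc1 promoter: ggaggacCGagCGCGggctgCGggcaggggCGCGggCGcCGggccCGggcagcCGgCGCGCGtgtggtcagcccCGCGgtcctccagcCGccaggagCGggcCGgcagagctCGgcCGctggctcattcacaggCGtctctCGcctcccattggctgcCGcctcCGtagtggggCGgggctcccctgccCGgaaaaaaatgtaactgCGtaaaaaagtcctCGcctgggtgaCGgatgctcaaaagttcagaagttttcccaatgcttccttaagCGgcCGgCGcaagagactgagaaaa
Tcf21 promoter: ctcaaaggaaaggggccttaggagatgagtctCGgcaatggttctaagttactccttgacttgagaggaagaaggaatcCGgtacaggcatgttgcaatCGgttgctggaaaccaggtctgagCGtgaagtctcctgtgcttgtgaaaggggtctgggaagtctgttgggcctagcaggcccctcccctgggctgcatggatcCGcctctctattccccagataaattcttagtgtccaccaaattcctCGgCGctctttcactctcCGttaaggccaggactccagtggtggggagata
The Foxc1 window held 32 CG dinucleotides and the Tcf21 window 8, against a median of 7 over 32851 mouse promoter windows of the same length. Lmx1b held 24 and Foxd1 15. Of all promoter windows, 90.5% held fewer than Foxc1, 80.0% fewer than Lmx1b, 65.4% fewer than Foxd1 and 51.4% fewer than Tcf21. These counts describe the reference sequence and say nothing of methylation in these cells.

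Library totals ran from 16.2 to 17.8 M counts in HF, 15.7 to 24.1 M in RT and 14.9 to 18.6 M in NT. The label of a podocyte line was checked against 17 podocyte markers, of which 12 passed the filter on low counts. Synpo, an actin-binding protein of foot processes, averaged 263 ± 8.18 CPM in HF, 274 ± 5.87 CPM in RT and 282 ± 24.7 CPM in NT (SD). Nphs1, which encodes nephrin of the slit diaphragm, averaged 5.03 ± 0.891 CPM in HF, 4.66 ± 0.834 CPM in RT and 3.96 ± 0.788 CPM in NT. Ptpro, Plce1, Cdkn1c and Pla2r1 stayed under the filter, with Ptpro at 1 count in all 17 libraries together. The summed podocyte markers ran from 2010 to 2162 CPM in HF, 2048 to 2156 CPM in RT and 1886 to 2136 CPM in NT. The summed 9 parietal epithelial markers ran from 3994 to 4250 CPM in HF, 4131 to 4285 CPM in RT and 3810 to 4209 CPM in NT, and the 14 tubule markers from 1466 to 1815 CPM in HF, 1525 to 1716 CPM in RT and 1425 to 1782 CPM in NT, with Slc34a1 and Aqp2 at 0 counts. Cdh16, a kidney epithelial cadherin among the tubule markers, averaged 976 ± 40.6 CPM in HF, 976 ± 19.2 CPM in RT and 977 ± 37.8 CPM in NT. The 13 mesangial and fibroblast markers summed to 851 to 947 CPM in HF and 852 to 920 CPM in RT, both without overlap with the 711 to 826 CPM in NT. Of these markers 8 were tested and 1, Acta2, passed in either comparison with NT. The median log2 difference of the 8 was 0.32 in HF against NT and 0.36 in RT against NT, against -0.003 and -0.002 over all genes tested. Pdgfrb, the marker with the most counts, averaged 478 ± 14.0 CPM in HF, 457 ± 8.15 CPM in RT and 478 ± 16.3 CPM in NT. The 11 endothelial and immune markers summed to 73.9 to 83.0 CPM in HF, 72.8 to 80.0 CPM in RT and 76.2 to 81.9 CPM in NT, with Kdr at 0 counts.

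By edgeR's quasi-likelihood test, Wt1 was the only one of the 5 detected factors that passed in any of the 3 comparisons, and it was lower on both reliefs than on the flat surface. The normalised read count (CPM, each count scaled to its library total after TMM) of Wt1 ran from 96.1 to 111 in HF, with a median of 102, from 93.8 to 101 in RT, with a median of 96.3, and were 115, 109.7, 117, 117 and 116 in the 5 NT libraries. These values rest on 1466 to 2382 Wt1 counts per library. All 6 RT libraries lay below all 5 NT libraries, while 5 of 6 HF libraries did and the highest HF library lay above the lowest NT library.

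Wt1 averaged 103 ± 5.22 CPM in HF and 115 ± 3.02 CPM in NT (SD), a log2 fold change of -0.16 ± 0.04 (SE), with a 95% confidence interval from -0.24 to -0.09. Wt1 fell in HF against NT by 10.6%, with an adjusted p of 0.0113 from edgeR's quasi-likelihood test. It was 1 of 5 detected factors called in this comparison, in which 2.33% of all genes tested were called, 1.5% as higher and 0.829% as lower. Wt1 stood 141st by p among 15196 genes and 49th among those with a lower value in HF.

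On the round relief Wt1 averaged 96.9 ± 2.96 CPM, and it fell in RT against NT by 15.5%. The log2 fold change was -0.24 ± 0.04 (95% confidence interval -0.32 to -0.17), with an adjusted p of 6.16e-05 from edgeR. In RT against NT 3.97% of all genes were called, 2.53% as higher and 1.44% as lower, and Wt1, the 1 detected factor called of 5, stood 30th by p and 9th among the genes with a lower value in RT. HF and RT were both set against the same NT libraries, so these comparisons share their controls.

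Between the reliefs themselves the Wt1 difference did not pass. HF was higher than RT by 0.08 ± 0.04 on the log2 scale (95% confidence interval 0.01 to 0.15), with an unadjusted p of 0.0248 and an adjusted p of 0.506 from edgeR. Of the 6 HF libraries 3 lay above every RT library. By edgeR 0 of the 5 detected factors were called in HF against RT, where 0.211% of all genes were (0.132% as higher and 0.079% as lower). Before adjustment 3 of the 5 had a p under 0.05, and DESeq2 and limma voom also called 0. In bulk RNA, fewer cells expressing Wt1 and less Wt1 RNA per cell cannot be told apart. Acta2, the 1 mesangial and fibroblast marker that passed, was higher in both HF and RT than in NT, and its part in the Wt1 result was not tested.

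**Figure D1:**
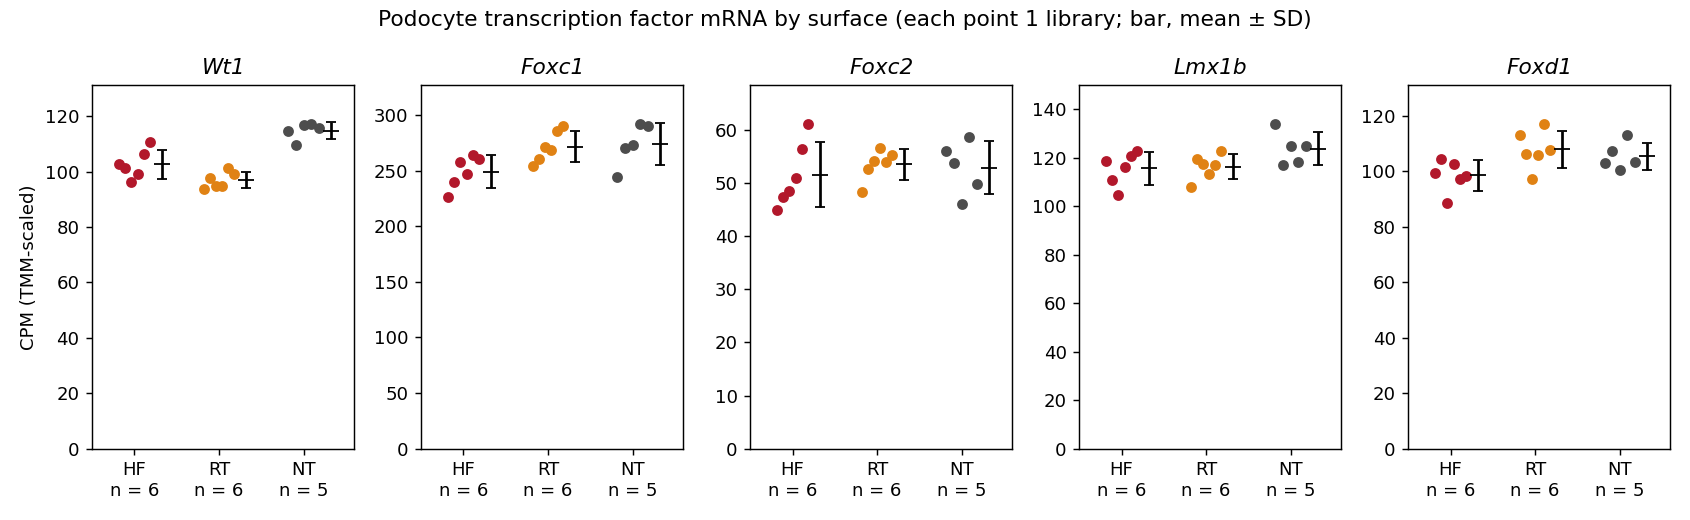
CPM of the 5 detected factors in each library (points), by group from HF to RT to NT, with the group mean and SD. For Wt1 the 6 RT libraries (93.8 to 101 CPM) lie below the 5 NT libraries (109.7 to 117 CPM), while the groups overlap for Foxc1, Foxc2, Lmx1b and Foxd1.

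Wt1 has an opposite-strand neighbour, Wt1os, that starts head to head with it, and the libraries do not mark strand. The annotated exons of Wt1os and Wt1 share no base. Wt1os averaged 12.4 ± 2.02 CPM in HF, 11.03 ± 1.31 CPM in RT and 12.3 ± 1.76 CPM in NT (SD), well below Wt1. Of the 100-base windows of the longest Wt1 transcript 0% occur in transcripts of another gene, and the same held for the longest transcripts of the other 5 factors. That Wt1 transcript has 3090 bases, against 6195 for all Wt1 exons together, and windows of the other transcripts were not checked.

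Foxc1, a forkhead factor that acts in nephron development and in the mature podocyte, had the most counts of the set. It ran from 226 to 264 CPM in HF, with a median of 253, from 254 to 290.0 CPM in RT, with a median of 269.9, and was 245, 270.3, 273, 292 and 290.3 CPM in the 5 NT libraries. The groups overlapped, with 2 HF libraries below every other library. Foxc1 averaged 249 ± 14.5 CPM in HF, 272 ± 13.8 CPM in RT and 274 ± 19.2 CPM in NT. The log2 difference of HF against NT was -0.14 ± 0.04 (95% confidence interval -0.23 to -0.05, adjusted p = 0.105, edgeR) and that of HF against RT was -0.12 ± 0.04 (-0.21 to -0.04, adjusted p = 0.315), neither of which passed. RT against NT was -0.01 ± 0.04 (-0.10 to 0.08, adjusted p = 0.931). Foxc1 in HF against NT passed without the filter on low counts (adjusted p = 0.0125) and without NT replicate 1 (adjusted p = 0.0128).

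Foxc2, the close relative of Foxc1 whose loss also impairs foot processes in mice, had the fewest counts of the detected factors, at 753 to 1327 per library. It ran from 44.9 to 61.2 CPM in HF (median 49.8), from 48.4 to 56.6 CPM in RT (median 54.1) and was 56.0, 53.8, 46.2, 58.7 and 49.9 CPM in NT. Every RT and NT library lay within the range of the HF libraries. The log2 differences were -0.04 ± 0.07 for HF against NT (adjusted p = 0.880, edgeR), -0.06 ± 0.07 for HF against RT (adjusted p = 0.914) and 0.02 ± 0.07 for RT against NT (adjusted p = 0.928). Their 95% confidence intervals ran from -0.18 to 0.11, from -0.19 to 0.08 and from -0.12 to 0.16, and the first of them holds the Wt1 estimate for HF against NT.

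Lmx1b, the factor mutated in nail-patella syndrome and a regulator of podocyte cytoskeleton and basement membrane genes, ran from 105 to 123 CPM in HF (median 118), from 108 to 123 CPM in RT (median 117) and was 134, 117, 125, 118 and 125 CPM in NT. In NT 3 of 5 libraries lay above every HF and RT library, and the other 2 lay among them. The log2 difference was -0.10 ± 0.04 in HF against NT (95% confidence interval -0.18 to -0.01, adjusted p = 0.260, edgeR) and -0.09 ± 0.04 in RT against NT (-0.17 to -0.005, adjusted p = 0.261). HF and RT differed by -0.01 ± 0.04 (-0.09 to 0.07, adjusted p = 0.983). None of these passed.

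Foxd1, which marks the stromal progenitors of the embryonic kidney, ran from 88.8 to 104 CPM in HF (median 98.9), from 97.4 to 117 CPM in RT (median 107) and was 103, 107, 100.5, 113 and 103 CPM in NT. The groups overlapped in every pair. Foxd1 averaged 98.5 ± 5.47 CPM in HF, 108 ± 6.74 CPM in RT and 105 ± 4.93 CPM in NT. The log2 difference was -0.10 ± 0.04 in HF against NT (95% confidence interval -0.19 to -0.01, adjusted p = 0.287, edgeR), -0.13 ± 0.04 in HF against RT (-0.22 to -0.05, adjusted p = 0.248) and 0.03 ± 0.04 in RT against NT (-0.05 to 0.12, adjusted p = 0.768).

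Tcf21, whose product is needed for podocyte differentiation and is a usual marker of podocytes in vivo, had 0 counts in all 17 libraries. With 3 counts as the limit that 0 allows, its level was at most 0.00994 CPM over the 301.714 M counts of all libraries, and at most 0.125 to 0.203 CPM in a single library. This limit covers counting error only.

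All 5 detected factors had a negative log2 difference in HF against NT, with a median of -0.10, against a median of -0.003 over all genes tested. In HF against RT 4 of 5 were negative with a median of -0.06, and in RT against NT 3 of 5 were negative with a median of -0.01. Over all genes tested the negative share was 51.0% in HF against NT, 50.4% in HF against RT and 50.9% in RT against NT. Before adjustment, 4 of 5 factors in HF against NT, 3 of 5 between HF and RT and 2 of 5 in RT against NT had a p under 0.05. The share of all genes with such a p was 14.2% in HF against NT, 8.002% between HF and RT and 17.1% in RT against NT. The factors differed in their order over the surfaces. Foxc1 and Foxd1 had their lowest mean in HF and nearly equal means in RT and NT, whereas Wt1 had its lowest mean in RT.

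**Figure D2:**
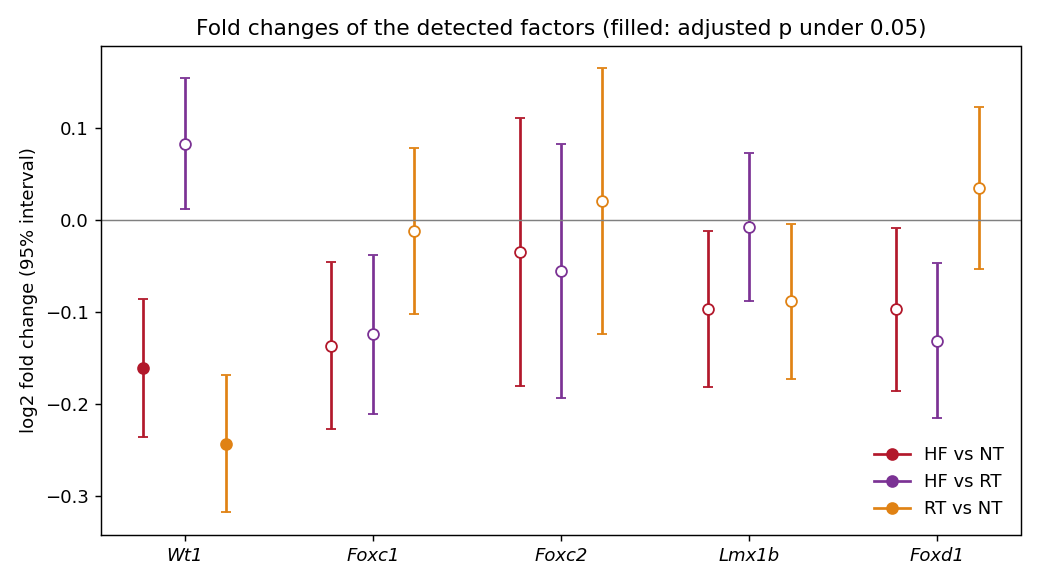
Log2 fold changes of the 5 detected factors with 95% confidence intervals, for each of the 3 comparisons, with filled points past the adjusted threshold. Wt1 lies at -0.16 in HF against NT and -0.24 in RT against NT, the only filled points, and Foxc2 has the widest intervals.

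Because several factors leaned lower on the fractal relief, Wt1 was also set against the sum of the other 4 detected factors within each library, a measure chosen after seeing the data. Wt1 had 19.1 to 21.0 counts per 100 counts of the others in HF, 17.2 to 18.1 in RT, and 21.3, 20.0, 21.4, 20.1 and 20.3 in NT. Every RT library lay below every HF and NT library on this scale, whereas HF and NT overlapped. The mean was 19.9 ± 0.709 in HF, 17.6 ± 0.320 in RT and 20.6 ± 0.675 in NT (SD). By exact two-sided permutation tests, the log2 difference was 0.18 in HF against RT (p = 0.00216, adjusted p = 0.00649 over 3 tests), -0.23 in RT against NT (p = 0.00433, adjusted p = 0.00649) and -0.05 in HF against NT (p = 0.121, adjusted p = 0.121). The values 0.00216 and 0.00433 are the smallest that these numbers of libraries can give. Foxc1 carries the most weight in the sum, with 80045 counts over all libraries against 35661 of Lmx1b, 31365 of Foxd1 and 15888 of Foxc2. In HF against RT the log2 difference was -0.12 for Foxc1, -0.13 for Foxd1 and -0.01 for Lmx1b, none of which passed. The ratio compares Wt1 with this weighted sum and does not show that either side stayed the same.

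Levels can be compared between genes only per length. Per kilobase of annotated exons, the mean CPM over all 17 libraries was 45.3 for Foxc1, 24.2 for Lmx1b, 20.5 for Foxd1, 19.3 for Foxc2 and 16.8 for Wt1. Foxc1 averaged 42.7 ± 2.47 CPM per kb in HF, 46.5 ± 2.37 in RT and 46.9 ± 3.28 in NT, above the other 4 factors in every library. Lmx1b averaged 23.7 ± 1.39 CPM per kb in HF, 23.8 ± 1.06 in RT and 25.4 ± 1.39 in NT. Foxd1 (19.5 ± 1.08 in HF, 21.3 ± 1.33 in RT, 20.8 ± 0.973 in NT) and Foxc2 (18.9 ± 2.25 in HF, 19.6 ± 1.05 in RT, 19.4 ± 1.82 in NT) lay next to each other, with means less than 1 SD of Foxc2 apart in HF and NT and further apart than either SD in RT. Wt1 averaged 16.6 ± 0.843 CPM per kb in HF, 15.6 ± 0.477 in RT and 18.5 ± 0.487 in NT, so it stood next to Foxc2 in NT and below it on RT. The place of Wt1 depends on the length used: its exons together span 6195 bases but its longest transcript 3090, and by the longest transcript it averaged 33.7 CPM per kb, second after Foxc1.

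**Figure D3:**
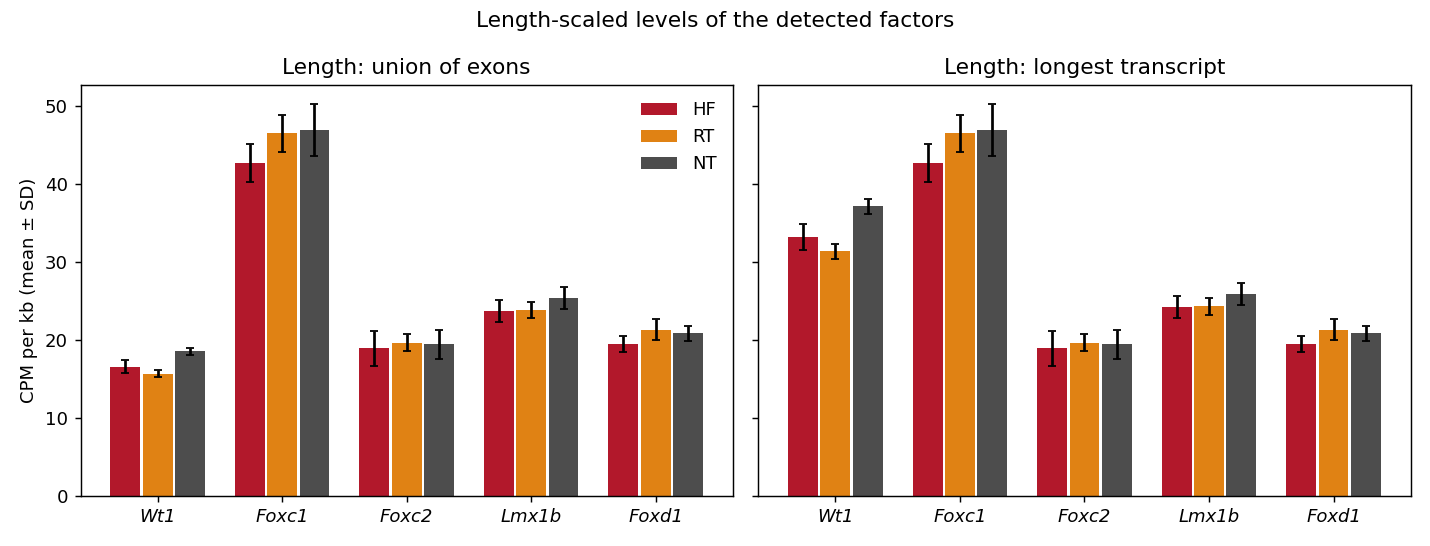
CPM per kilobase of the 5 detected factors, as group means (bars) with SD for HF, RT and NT, by the length of all annotated exons (left) and of the longest transcript (right). By all exons Foxc1 lies at 42.7 to 46.9 and the other 4 factors at 15.6 to 25.4, and by the longest transcript Wt1 moves up to second place.

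Among the 10 pairs of detected factors, only the correlation of Wt1 with Lmx1b over the 17 libraries passed. Pearson's r of log2 CPM was 0.68 (permutation p = 0.00191, adjusted p = 0.0191) and Spearman's rho 0.69 (permutation p = 0.0030, adjusted p = 0.0300). Pearson's r was 0.73 without the 2 libraries farthest from the median of the first gene, and 0.68 for deviations from the group means. The permutations moved libraries across groups, and the value for deviations from the group means was not tested. The other 9 pairs had r from 0.05 to 0.45 with adjusted p of 0.338 or more. For Foxc1 and Foxc2 r was 0.45 and rho 0.37.

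The genes whose log2 CPM followed Wt1 most closely over the 17 libraries, of 12210 ranked, were Tgtp1 (r = 0.92), Fth1 (0.92), Lamb2 (0.91), Osmr (0.91) and Nr2f2 (0.91). Since the groups differ, r was also taken over deviations from the group means, where it was 0.62 for Tgtp1, 0.60 for Fth1, 0.70 for Lamb2, 0.62 for Osmr and 0.85 for Nr2f2. Fth1, the ferritin heavy chain, had log2 fold changes of -0.22 in HF against NT (adjusted p = 0.00184, edgeR) and -0.31 in RT against NT (adjusted p = 1.04e-05). Osmr, the oncostatin M receptor, had -0.20 (adjusted p = 0.00666) and -0.34 (adjusted p = 6.16e-06) in these comparisons. Lamb2, the laminin chain of the glomerular basement membrane, fell in RT against NT (-0.17, adjusted p = 0.00182) but did not pass in HF against NT (-0.09, adjusted p = 0.190). Tgtp1, an interferon-induced GTPase, shares 83.3% of the 100-base windows of its longest transcript with transcripts of other genes, so its counts are uncertain.

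The genes that ran most opposite to Wt1 were Enc1 (r = -0.96, and -0.86 within groups), Lhfp (-0.96 and -0.87) and Serpinh1 (-0.94 and -0.78). Enc1 rose in HF against NT by 0.40 on the log2 scale (adjusted p = 0.000884, edgeR) and in RT against NT by 0.49 (adjusted p = 5.71e-05). Serpinh1, the collagen chaperone HSP47, rose by 0.13 (adjusted p = 0.0363) in HF and 0.21 (adjusted p = 0.000492) in RT. These correlations are descriptions over libraries that share the groups.

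**Figure D4:**
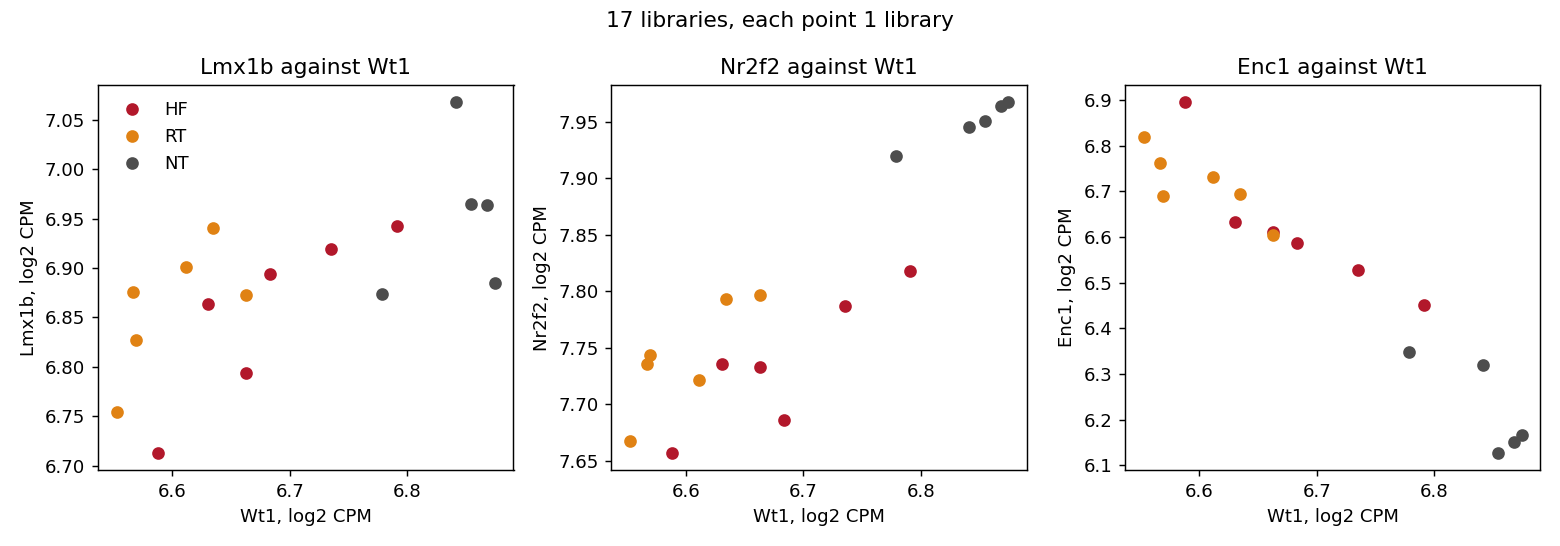
Log2 CPM of Lmx1b (left), Nr2f2 (middle) and Enc1 (right) against log2 CPM of Wt1, with 1 point per library, coloured by group (HF, RT, NT). The NT libraries sit at the high end of Wt1 in each panel, and r is 0.68 for Lmx1b, 0.91 for Nr2f2 and -0.96 for Enc1.

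The genes most like the other factors differed from those of Wt1. Foxc1 was followed most closely by Pax8 (r = 0.89, and 0.87 within groups), a paired-box factor of the renal lineage, then by Marc2 (0.83), Hoxb9 (0.82), Nupl2 (0.82) and Uimc1 (0.82). Lmx1b was followed by Syap1 (0.86), Kifap3 (0.83), Zbtb21 (0.82), Plag1 (0.80) and Pde5a (0.79). Foxc2 was followed by Zfp36l2 (0.82), Cdc42ep3 (0.81), Scamp3 (0.80), Trim8 (0.76) and Hoxa2 (0.75), and Foxd1 by Apcdd1 (0.81), Sox8 (0.79), Lpar1 (0.75), Cbx6 (0.72) and Tmem115 (0.72).

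Most known targets of WT1 did not pass. Of 28 listed targets 17 were tested, and in HF against NT 1 rose, 1 fell and 15 did not pass, with a median log2 difference of 0.05 against -0.003 over all genes tested. In that comparison 2.33% of all genes were called. Before adjustment 11 of the 17 had a p under 0.05, against 14.2% of all genes, and DESeq2 called 5. Sulf1 and Sulf2 encode the endosulfatases that trim heparan sulfate in the glomerulus. Sulf1 fell in HF (8.99 ± 0.867 CPM) against NT (12.2 ± 1.40 CPM), by 0.44 ± 0.11 on the log2 scale (adjusted p = 0.0181, edgeR, and 0.0864 without NT replicate 3). Sulf2 rose in HF (103 ± 4.72 CPM) against NT (89.3 ± 9.004 CPM), by 0.21 ± 0.05 (adjusted p = 0.0299, and between 0.0566 and 0.105 without HF replicate 3, 4 or 5 or NT replicate 2, 3 or 4). Near the threshold without passing were Wnt4, at -0.29 ± 0.08 (adjusted p = 0.0506), and Nes, the intermediate filament nestin, at 0.19 ± 0.05 (adjusted p = 0.0506).

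In HF against RT 0 of the 17 tested targets passed by edgeR, 6 had an unadjusted p under 0.05, and DESeq2 called 3 and limma voom 0. Of all genes tested, 0.211% were called there by edgeR and 8.002% had an unadjusted p under 0.05. The median was 0.01. Podxl, the podocalyxin of the podocyte surface, was at 126 ± 9.80 CPM in HF and 143 ± 4.16 CPM in RT, a log2 difference of -0.17 ± 0.04 (adjusted p = 0.0807, edgeR).

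In RT against NT 2 targets rose, 1 fell and 14 did not pass, with a median of 0.002, while 3.97% of all genes were called. Before adjustment 7 of the 17 had a p under 0.05, against 17.1% of all genes, and DESeq2 called 4. Aldh1a2, a retinoic acid synthesising enzyme, rose in RT (121 ± 4.22 CPM) against NT (104 ± 5.82 CPM), by 0.21 ± 0.04 on the log2 scale (adjusted p = 0.00100, edgeR). Spry1, an inhibitor of receptor tyrosine kinase signalling, rose by 0.18 ± 0.04 (adjusted p = 0.0121, and 0.0556 without NT replicate 3), and it shares 24.4% of its exonic bases with the gene Gm42922. Cxxc5 fell by 0.11 ± 0.03 (adjusted p = 0.0361), and the call was lost in 8 of 11 repeats that each left out 1 library. The slit diaphragm target Nphs1 did not pass, at 0.35 ± 0.15 in HF against NT (adjusted p = 0.270), 0.12 ± 0.14 in HF against RT (adjusted p = 0.911) and 0.23 ± 0.15 in RT against NT (adjusted p = 0.491).

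Of 11 listed targets of LMX1B and FOXC2, 7 were tested and 0 passed in any of the 3 comparisons by edgeR or limma voom. Of all genes tested, edgeR called 2.33% in HF against NT, 0.211% in HF against RT and 3.97% in RT against NT. An unadjusted p under 0.05 was seen for 14.2%, 8.002% and 17.1% of all genes, in that order. The median log2 difference was 0.24 in HF against NT, where 3 had an unadjusted p under 0.05 and DESeq2 called 1. It was -0.07 in HF against RT (1 unadjusted, 1 by DESeq2) and 0.12 in RT against NT (3 unadjusted, 2 by DESeq2). Itgb3, the integrin beta 3 chain, was at 3.94 ± 0.594 CPM in HF, 2.50 ± 0.495 CPM in RT and 2.602 ± 0.533 CPM in NT. Its log2 difference was 0.60 ± 0.17 in HF against NT (adjusted p = 0.0503, edgeR) and 0.64 ± 0.16 in HF against RT (adjusted p = 0.0807). The basement membrane collagen gene Col4a4 was at 5.63 ± 1.47 CPM in HF, 5.94 ± 1.54 CPM in RT and 3.99 ± 0.652 CPM in NT, with 0.50 ± 0.19 in HF against NT (adjusted p = 0.187) and 0.57 ± 0.18 in RT against NT (adjusted p = 0.0863).

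Of 13 partners and cofactors, 12 were tested and 1 passed in RT against NT, where 3.97% of all genes were called. Before adjustment 3 had a p under 0.05 there by edgeR, against 17.1% of all genes. In HF against NT and in HF against RT 0 passed by edgeR, DESeq2 or limma voom. An unadjusted p under 0.05 by edgeR was seen for 1 in each, against 14.2% and 8.002% of all genes. The gene that passed was Basp1. Basp1 encodes a corepressor that binds WT1. It rose in RT (42.6 ± 1.17 CPM) against NT (36.0 ± 2.59 CPM), by 0.24 ± 0.06 on the log2 scale (adjusted p = 0.0111, edgeR), and the call was lost without NT replicate 3. In HF it was at 37.3 ± 3.94 CPM. Ldb1, the adaptor that binds LIM homeodomain proteins such as LMX1B, was at 354 ± 8.003 CPM in HF, 347 ± 7.09 CPM in RT and 363 ± 15.3 CPM in NT. Tcf3, which pairs with TCF21, was at 210 ± 8.79 CPM in HF, 206 ± 3.58 CPM in RT and 206 ± 8.47 CPM in NT.

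Among 16 other transcription factors of podocytes, 13 were tested. In HF against NT 1 rose and 1 fell, in HF against RT 1 fell, and in RT against NT 2 rose and 1 fell. The medians were -0.02 in the first, -0.01 in the second and -0.05 in the last. Of all genes tested, 2.33%, 0.211% and 3.97% were called in these comparisons. Before adjustment 5, 3 and 6 of the 13 had a p under 0.05 by edgeR, against 14.2%, 8.002% and 17.1% of all genes. Nr2f2, the nuclear receptor COUP-TFII and also 1 of the 5 genes most like Wt1, was at 213 ± 8.88 CPM in HF, 214 ± 7.15 CPM in RT and 247 ± 3.24 CPM in NT. It fell by 0.21 ± 0.03 on the log2 scale both in HF against NT (adjusted p = 0.000208, edgeR) and in RT against NT (adjusted p = 0.000162), and both calls held when each library was left out in turn. Of its exonic bases 7.46% are shared with B130024G19Rik. Vdr, the vitamin D receptor, rose by 0.20 ± 0.05 in HF against NT (adjusted p = 0.0135) and by 0.18 ± 0.05 in RT against NT (adjusted p = 0.0160, and 0.0551 without RT replicate 4). Its means were 48.0 ± 2.16 CPM in HF, 47.5 ± 1.94 CPM in RT and 41.8 ± 1.42 CPM in NT. Hes1, a Notch target gene, was highest in RT, at 32.4 ± 2.76 CPM in HF, 39.2 ± 1.31 CPM in RT and 32.9 ± 3.93 CPM in NT. It fell by 0.27 ± 0.06 in HF against RT (adjusted p = 0.0420), a call lost in 10 of 12 repeats that each left out 1 library, and it rose by 0.25 ± 0.06 in RT against NT (adjusted p = 0.0178, and 0.0666 without NT replicate 1).

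Among the podocyte markers, Pdpn, the membrane protein podoplanin, was at 153 ± 4.51 CPM in HF, 161 ± 7.02 CPM in RT and 175 ± 5.97 CPM in NT. It fell in HF against NT by 0.19 on the log2 scale (adjusted p = 0.000972, edgeR) and in RT against NT by 0.13 (adjusted p = 0.0309, lost in 6 of 11 repeats that each left out 1 library). Clic5, a chloride intracellular channel protein of foot processes, fell in RT against NT by 0.47 ± 0.09 (adjusted p = 0.00167). The other tested podocyte markers did not pass by edgeR: 11 of 12 in HF against NT, 12 of 12 between HF and RT and 10 of 12 in RT against NT. Of all genes tested, 2.33%, 0.211% and 3.97% were called in these comparisons. Before adjustment 7, 4 and 6 of the 12 markers had a p under 0.05, against 14.2%, 8.002% and 17.1% of all genes. DESeq2 called 3, 2 and 4 of the markers. Among 8 tested parietal epithelial markers Ncam1 fell in HF against NT (adjusted p = 2.53e-05) and in HF against RT (adjusted p = 0.0109), and Cldn1 fell in RT against NT (adjusted p = 0.0157). By edgeR, DESeq2 and limma voom 0 of 5 tested tubule markers and 0 of 2 tested endothelial and immune markers passed in any comparison, with at most 1 of either list at an unadjusted p under 0.05. Acta2, smooth muscle actin and the 1 mesangial and fibroblast marker of 8 tested that passed, rose by 0.48 ± 0.10 in HF (364 ± 42.2 CPM) against NT (261 ± 36.7 CPM, adjusted p = 0.0171, and 0.0749 with only these groups in the fit) and by 0.48 ± 0.10 in RT (363 ± 23.5 CPM) against NT (adjusted p = 0.0121).

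**Figure D5:**
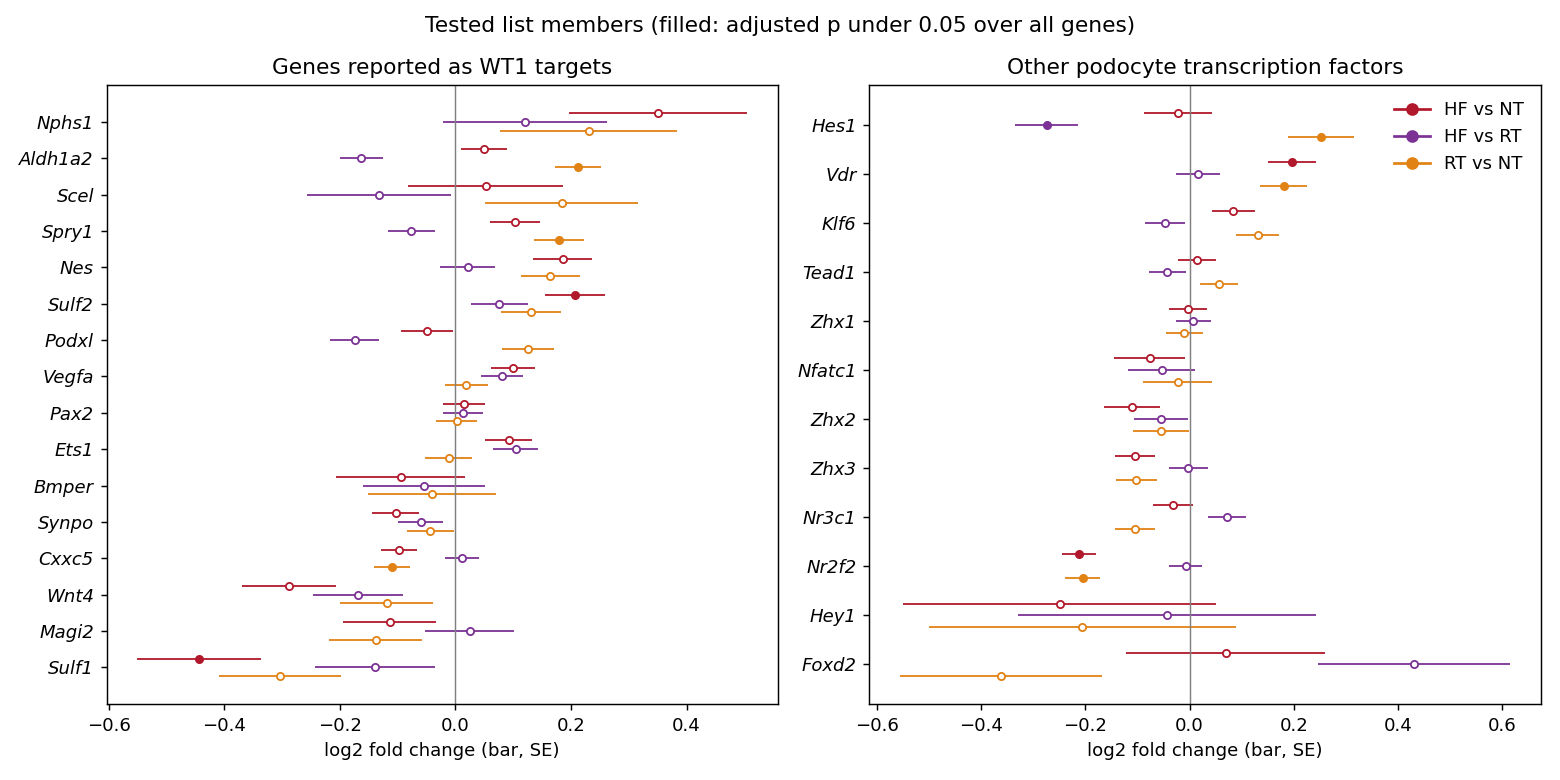
Log2 fold changes (points) with SE (bars) of tested WT1 targets (left) and other tested podocyte transcription factors (right) in the 3 comparisons, with filled points past the adjusted threshold. Among the targets Sulf1 and Sulf2 are filled in HF against NT and Aldh1a2, Spry1 and Cxxc5 in RT against NT, while Nr2f2 and Vdr are filled in both comparisons with NT.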

How the data were processed

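Poly-A RNA of 17 E11 libraries was sequenced in 2 x 150 base pairs from non-directional libraries, per the labels' protocols. The authors deposited raw read counts per gene, with no normalization. CASAVA, HISAT2 2.0.5, featureCounts 1.5.0-p3 and GRCm39 are named per the submitters' processing notes, and the annotation release and strand setting are not given in the sources used here. Symbols, lengths and exon overlaps came from GENCODE M21 on GRCm38, where 52073 identifiers had a symbol.

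Genes were kept by filterByExpr (15196 of 56748). With edgeR 4.0.16 (R 4.3.3), counts were TMM-scaled and tested by the quasi-likelihood F test, with 1 mean for each of 3 groups and no covariate. Two-sided p-values were adjusted over the whole table by Benjamini-Hochberg, and a gene passed at an adjusted p under 0.05. A standard error is the log2 fold change over the root of F. Correlations used log2 CPM (prior count 2) and 100000 permutations. The depth of 14.9 to 24.1 M counts per library gave each detected factor at least 753 counts.

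All 6 factors were named. From each list came genes past the threshold and up to 4 with the smallest p, not all of which are reported here, and genes like each factor came by highest r among genes averaging 1 or more on the log2 CPM scale. The members and lists were chosen with earlier results of these data known. Alternatives were DESeq2 1.42.0, limma 3.58.1 voom, other scalings, no filter, 2 groups in the fit, the replicate number as a block, and leaving out each library.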

Additional observations from a re-analysis of the deposited data

How the results depend on the processing

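The calls of Wt1 kept their direction and side of the threshold in 59 of 61 alternatives. With each library left out in turn, its log2 fold change ran from -0.18 to -0.14 in HF against NT (adjusted p from 0.00338 to 0.0425), from -0.26 to -0.23 in RT against NT and from 0.06 to 0.10 in HF against RT. The exceptions were the ratios to the other 4 factors, at -0.051 (adjusted p = 0.121) in HF against NT and 0.18 (adjusted p = 0.00649) in HF against RT. Its level per kb moved to 33.7 with the longest transcript.

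For the other factors 217 of 232 alternatives kept both. Foxc1 passed as lower in HF against NT without a filter (adjusted p = 0.0125), with the replicate block (0.00198) and without NT replicate 1 (0.0128), which made 2 factors called there (1 to 2 with libraries left out), and in HF against RT with the replicate block (0.0238), which made 1. Signs turned for differences near 0: leaving out libraries gave -0.090 to 0.0056 for Foxc2 in HF against NT, -0.028 to 0.020 for Lmx1b in HF against RT, and -0.051 to 0.011 for Foxc1 and -0.026 to 0.060 for Foxc2 in RT against NT, where the replicate block gave -0.012 for Foxc2. Of 438 alternatives of list genes 47 lost the call. Apart from left-out libraries, these were Acta2 in HF against NT (adjusted p = 0.0749) and Cxxc5 (0.0752) and Pdpn (0.0580) in RT against NT with only 2 groups in the fit, Sulf2 in HF against NT with the replicate block (0.0570), Hes1 in HF against RT (0.295) and Hnf4a (0.0801) and Pdpn (0.0781) in RT against NT with numbers 1 to 5 only, and Cxxc5 without a filter (0.0736).

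Genes called in HF against NT (354) came to 564 with DESeq2, 597 without a filter, 200 with only these groups in the fit, 637 with the replicate block and 202 to 604 with libraries left out. In HF against RT (32) they came to 84, 148, 113 and 125 under the same settings, 15 with numbers 1 to 5 only and 14 to 89 with libraries left out. In RT against NT (603) they came to 995 with the replicate block and 365 to 806 with libraries left out. The cause was not tested. Same-numbered libraries correlated at -0.01 to 0.19 over 16 pairs, with 2 over 0.1, and the labels give the numbers no meaning, so they were not taken to pair libraries. That 8 of 17 libraries correlated best with a library of their own number is a hint towards pairing, from the data and not from the design.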

Other observations

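Genes of other renal compartments, nearly all of them transcription factors, were read beside the podocyte factors, in the same fit. Of 18 nephron progenitor and renal vesicle factors 9 were tested, and 1 rose in HF against NT, where 2.33% of all genes were called. Before adjustment 2 had a p under 0.05 there by edgeR, against 14.2% of all genes. By edgeR, DESeq2 and limma voom 0 passed in HF against RT and 0 in RT against NT. An unadjusted p under 0.05 by edgeR was seen for 1 and 0 of them, against 8.002% and 17.1% of all genes. The gene that rose was Gdnf, which encodes the ligand of the Ret receptor and not a transcription factor. Gdnf was at 7.005 ± 0.838 CPM in HF, 5.24 ± 0.638 CPM in RT and 4.53 ± 0.737 CPM in NT. It rose by 0.62 ± 0.12 on the log2 scale in HF against NT (adjusted p = 0.00344, edgeR), and the call held when each library was left out in turn. Pax2, which WT1 is known to repress as podocytes form, was at 364 ± 18.3 CPM in HF, 361 ± 10.8 CPM in RT and 361 ± 16.3 CPM in NT. Pax8 was at 317 ± 13.4 CPM in HF, 328 ± 4.45 CPM in RT and 338 ± 19.5 CPM in NT. Sall1, Eya1 and Osr1 were detected as well, at 29.7 to 46.5 CPM in all groups, whereas Six2, a marker of uninduced progenitors, had 0 counts in every library.

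Of 18 tubule and parietal factors 9 were tested, and 0 passed by edgeR, DESeq2 or limma voom in HF against NT and in HF against RT. An unadjusted p under 0.05 by edgeR was seen for 5 of the 9 in HF against NT and 1 in HF against RT. The shares of all genes were 14.2% and 8.002%. In HF against NT 8 of the 9 were positive, with a median log2 difference of 0.09, while 49.0% of all genes were positive. Before adjustment 2 had a p under 0.05 in RT against NT by edgeR, against 17.1% of all genes. In that comparison 3.97% of all genes were called, and 2 of these factors rose. Among them Hnf4a, a nuclear receptor of the proximal tubule, was near its limit of detection, at 0.823 ± 0.323 CPM in RT and 0.299 ± 0.207 CPM in NT, and its rise of 1.52 ± 0.40 on the log2 scale (adjusted p = 0.0252, edgeR) was lost without NT replicate 3, 4 or 5 or RT replicate 6 (adjusted p from 0.0545 to 0.102). Of 17 stromal and mesangial factors 15 were tested and 0 passed in any of the 3 comparisons by edgeR (1, 0 and 2 had an unadjusted p under 0.05), while DESeq2 called 1 in HF against NT. The medians were -0.03 in HF against NT, 0.05 in HF against RT and -0.06 in RT against NT. Among 15 checks for 1 library standing apart from its group, over the 5 detected factors and 3 groups, 0 met the limit.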
